A study of Saccharomyces cerevisiae with 6 samples.

Results

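The 9 reference sequences of the leucine tRNAs, of 70 unique tRNA sequences listed, were followed in paf1∆, rtf1∆ and wild type cells of Saccharomyces cerevisiae. They were taken as every entry that the files name as a leucine tRNA. The 9 entries belong to 4 types, one for each anticodon, out of 43 types of all amino acids. The copies of a type were summed, as they could not be told apart by their counts. All 4 types passed the filter on low counts in every comparison.

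tRNA levels were measured by tRNA-HySeq, in which size-purified tRNA is broken by hydrolysis and its fragments, here of 19 to 35 nt, are sequenced. The 3 groups had 2 libraries each, from log-phase cells grown at 30 °C in rich medium with 2% glucose. They were paf1∆ (strain DAS516), rtf1∆ (strain DAS549) and wild type (strain DAS217), which carries neither deletion. The study's methods give both deletions as HIS3 replacements in strains that also carry ade2, ura3, trp1, leu2, his3 and can1 alleles. Strain DAS217 is not in the strain list of the methods, so that a difference in strain background and the deletions cannot be told apart. The sources used here do not say whether these libraries came from separate cultures, and the tests below therefore measure the spread between libraries, which may be technical. Neither deleted gene is a tRNA gene, and so the deletions could not be checked in these counts.

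Paf1 and Rtf1 are subunits of the Paf1 complex, which travels with RNA polymerase II and acts in transcript elongation and histone modification. tRNA genes are transcribed by RNA polymerase III from promoters inside the gene. Leucine tRNAs carry leucine to the ribosome and read the 6 leucine codons, and together with serine tRNAs they have a long variable arm. tRNA-Leu(CAA) reads the UUG codon, tRNA-Leu(UAA) reads UUA, and tRNA-Leu(UAG) and tRNA-Leu(GAG) read codons that start with CU. The primary transcripts of tRNA-Leu(CAA) and tRNA-Leu(UAG) hold an intron next to the anticodon, which is removed by splicing.

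The RefSeq annotation of assembly R64 lists 21 leucine tRNA genes among 275 nuclear tRNA genes, on 10 chromosomes. It holds 10 genes of tRNA-Leu(CAA), 7 of tRNA-Leu(UAA), 3 of tRNA-Leu(UAG) and 1 of tRNA-Leu(GAG), and 13 of the 21 have an intron. The following sequences show 1 gene of each type, to let the types be compared base by base. Their lengths are those of reference sequences in the rtf1∆ and wild type files, while the paf1∆ files list references 3 nt longer. The capitals mark the anticodon as DNA, and the genes lie at chrIII:90859-90972 (+ strand), chrII:9583-9666 (+), chrX:617919-618019 (+) and chrVII:700675-700756 (+), each being a tRNA gene.
tRNA-Leu(CAA), gene SUP53: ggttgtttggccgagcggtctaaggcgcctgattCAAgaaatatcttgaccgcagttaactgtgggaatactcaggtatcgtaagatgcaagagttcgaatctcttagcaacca
tRNA-Leu(UAA), gene YNCB0001W: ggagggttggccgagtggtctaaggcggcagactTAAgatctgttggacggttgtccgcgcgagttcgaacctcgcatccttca
tRNA-Leu(UAG), gene YNCJ0029W: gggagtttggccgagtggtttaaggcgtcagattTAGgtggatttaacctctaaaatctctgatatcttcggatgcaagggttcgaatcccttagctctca
tRNA-Leu(GAG), gene YNCG0028W: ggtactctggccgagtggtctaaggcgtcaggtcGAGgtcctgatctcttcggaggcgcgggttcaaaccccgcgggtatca

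SUP53, SUP54 and SUP56 of tRNA-Leu(CAA) carry their names because mutants of them suppress the amber stop codon. In all 4 types the anticodon starts at base 35 of the gene. The spliced sequences are 82 nt long, save that of tRNA-Leu(UAA) with 84 nt. They differ widely from each other, from 78.0% identical positions between tRNA-Leu(CAA) and tRNA-Leu(UAG) to 62.2% between tRNA-Leu(CAA) and tRNA-Leu(GAG). The longest stretch that all 4 share is tggccgag, from base 8. The G and C content of the spliced sequence is 62.2% in tRNA-Leu(GAG), 58.3% in tRNA-Leu(UAA) and 50% in both types with an intron.

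**Figure D1:**
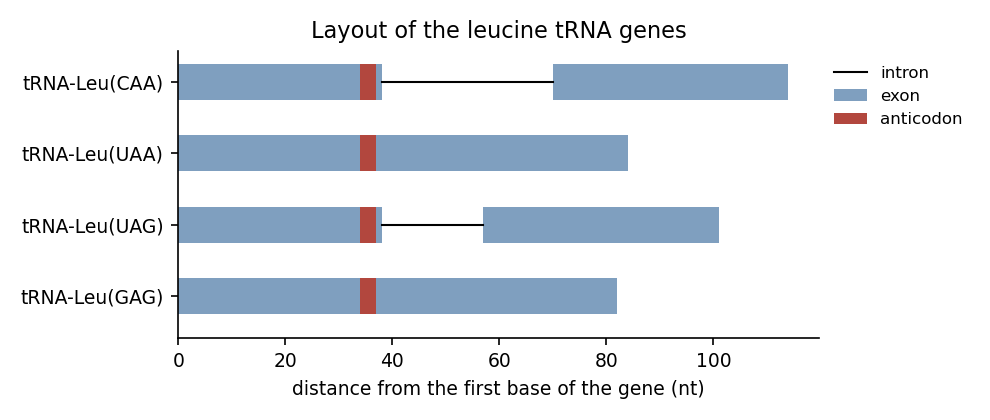
Layout of 1 gene of each leucine tRNA type in the R64 annotation, drawn to scale. The x axis is the distance from the first base of the gene in nt, blue boxes are exons, the black line is an intron and the red box is the anticodon. The introns of tRNA-Leu(CAA), 32 nt in the form drawn, and tRNA-Leu(UAG), 19 nt, follow the base after the anticodon.

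The copies that the files count separately differ only in their introns. The 10 tRNA-Leu(CAA) genes have 5 distinct gene sequences but 1 spliced sequence, and the 3 tRNA-Leu(UAG) genes have 2 and 1. The number of deposited reference sequences, and their lengths in the rtf1∆ and wild type files, match these distinct gene sequences, introns included. The introns below are shown because they are the only bases by which a read could be given to one copy. Capitals mark bases that differ from the most frequent form of the type.
tRNA-Leu(CAA) intron of 6 genes: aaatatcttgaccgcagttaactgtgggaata
tRNA-Leu(CAA) intron of SUP56: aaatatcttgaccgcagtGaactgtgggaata
tRNA-Leu(CAA) intron of YNCD0031C: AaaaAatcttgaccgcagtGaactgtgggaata
tRNA-Leu(CAA) intron of YNCG0008W: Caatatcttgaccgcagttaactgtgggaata
tRNA-Leu(CAA) intron of YNCL0034W: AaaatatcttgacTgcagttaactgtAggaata
tRNA-Leu(UAG) intron of 2 genes: tggatttaacctctaaaat
tRNA-Leu(UAG) intron of YNCL0032C: tggGtttaacctctaaaat

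Counted from the first base of the most frequent intron, SUP56 carries T19G, YNCD0031C T4A and T19G, YNCG0008W A1C, and YNCL0034W C13T and G26A. YNCD0031C and YNCL0034W have in addition 1 more A at the start, which makes their introns 33 nt long. The tRNA-Leu(UAG) intron of YNCL0032C carries A4G. Because mature tRNA lacks the intron, most fragments that cross the splice junction have no full match in a gene sequence. Of the 64 possible 19-nt windows of spliced tRNA-Leu(CAA), 47 (73.4%) were found in its gene sequence, and 46 of 64 (71.9%) for tRNA-Leu(UAG). Of the 18 such windows that cross the junction, 1 matched for tRNA-Leu(CAA) and 0 for tRNA-Leu(UAG). At 35 nt these were 15 of 48 (31.2%) and 14 of 48 (29.2%), whereas every window of tRNA-Leu(UAA) and tRNA-Leu(GAG) was found at either length. Levels are therefore set side by side between types only as a description. No window was shared with a tRNA of another amino acid, and only 2 of the 19-nt windows were shared between tRNA-Leu(UAA) and tRNA-Leu(GAG).

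Counts of the copies were nearly equal. The 5 tRNA-Leu(CAA) sequences had 35145 to 35656 and 18181 to 18433 reads in the paf1∆ libraries, 2690 to 2804 and 2066 to 2216 in the rtf1∆ libraries, and 1572 to 1687 and 4090 to 4179 in the wild type libraries. The widest gap was 9.75%, between the 1093 and 1205 reads of both tRNA-Leu(UAG) sequences in wild type replicate 2. In 12 chi-square tests of equal counts, one for each library and type with copies, the smallest unadjusted p was 0.0195 and the smallest Benjamini-Hochberg adjusted p was 0.234. How reads that match several sequences were placed is not given in the sources used here. Nothing could be read about single copies, and they were summed.

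The libraries differed in depth and in processing. The paf1∆ libraries held 8259323 and 7906642 reads aligned to tRNAs, against 519302 to 1435676 in the other 4 libraries. In paf1∆ 87.9% and 87.4% of the reads were aligned, whereas the other libraries lay between 5.64% and 6.76%. The paf1∆ reads had also been aligned to reference sequences that were 3 nt longer for every tRNA. Differences between paf1∆ and any other genotype and differences in this processing cannot be told apart. By the names of the libraries, wild type replicate 1 is the only one of set 1, while wild type replicate 2 and both rtf1∆ libraries are of set 2, and paf1∆ has no set. Replicates of every genotype differed beyond sampling noise, also within the leucine tRNAs.

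Leucine tRNAs made up a small and similar part of the aligned reads in all genotypes. Their share was 3.35% and 2.22% in paf1∆, 2.59% and 2.42% in rtf1∆, and 2.40% and 1.98% in wild type. Mean shares were 2.79% ± 0.799 in paf1∆, 2.51% ± 0.118 in rtf1∆ and 2.19% ± 0.298 in wild type (SD, n = 2 each). The paf1∆ and wild type shares overlapped, and the lower rtf1∆ share was 2.42% (95% Wilson interval 2.38% to 2.46%) against 2.40% (2.36% to 2.45%) in the higher wild type library. Intervals cover counting error only, since the reads carry no molecular identifiers.

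TMM scaling, which sets libraries to the middle of their tRNAs, gave a wider gap than the shares. Summed over the 4 types, leucine tRNAs had 26238 and 27052 counts per 1000000 scaled reads (CPM) in paf1∆, 27197 and 28933 CPM in rtf1∆, and 19153 and 20788 CPM in wild type. On this scale neither deletion overlapped wild type, and the lower rtf1∆ library lay just above the higher paf1∆ library. The most counted type of a library took 19.4% (tRNA-Arg(UCU)) and 25.4% (tRNA-Ser(AGA)) of the reads in paf1∆, 33.2% and 39.0% (tRNA-Met(CAU)) in rtf1∆, and 14.8% and 18.7% (tRNA-Asp(GUC)) in wild type.

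tRNA-Leu(CAA), which has the most genes, was the most abundant leucine tRNA in every library. It had 16755 and 14130 CPM in paf1∆, 18881 and 21769 CPM in rtf1∆, and 12396 and 15061 CPM in wild type. Both rtf1∆ libraries lay above both wild type libraries, and one of the paf1∆ libraries lay between them. It made up 63.9% and 52.2% of the leucine reads in paf1∆, 69.4% and 75.2% in rtf1∆, and 64.7% and 72.5% in wild type.

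tRNA-Leu(UAA), the reader of UUA, was next in abundance, with 5940 and 7309 CPM in paf1∆, 5189 and 4548 CPM in rtf1∆, and 3610 and 3527 CPM in wild type. In CPM all groups were apart, with paf1∆ highest and wild type lowest. In the scaling of each comparison, libraries did not overlap for 62.8% to 86% of all types. The share of types apart in all comparisons at once was not counted. By share of aligned reads, rtf1∆ at 0.494% and 0.381% overlapped wild type at 0.453% and 0.336%. Its part of the leucine reads was 22.6% and 27.0% in paf1∆, 19.1% and 15.7% in rtf1∆, and 18.8% and 17.0% in wild type.

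tRNA-Leu(UAG), which reads CU-starting codons with an unmodified U at the wobble base, had 2620 and 4260 CPM in paf1∆, 2711 and 2215 CPM in rtf1∆, and 2078 and 1679 CPM in wild type. Both deletions lay above wild type and overlapped with each other. In CPM the paf1∆ replicates stood further apart than those of the other genotypes, while by share of aligned reads they were the closest pair, at 0.335% and 0.350% in paf1∆, 0.258% and 0.186% in rtf1∆, and 0.261% and 0.160% in wild type.

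tRNA-Leu(GAG), from its lone gene on chromosome VII, was the least abundant. It had 922 and 1352 CPM in paf1∆, 415 and 402 CPM in rtf1∆, and 1070 and 520 CPM in wild type. The rtf1∆ libraries were the lowest of the 6, and wild type replicate 1 lay between both paf1∆ libraries. The underlying counts were 9723 and 8774 reads in paf1∆, 305 and 198 reads in rtf1∆, and 697 and 712 reads in wild type. The rtf1∆ shares of 0.0396% (95% Wilson interval 0.0354% to 0.0442%) and 0.0337% (0.0293% to 0.0387%) were below the wild type shares of 0.134% and 0.0496% (0.0461% to 0.0534%), which themselves differed by more than counting error.

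**Figure D2:**
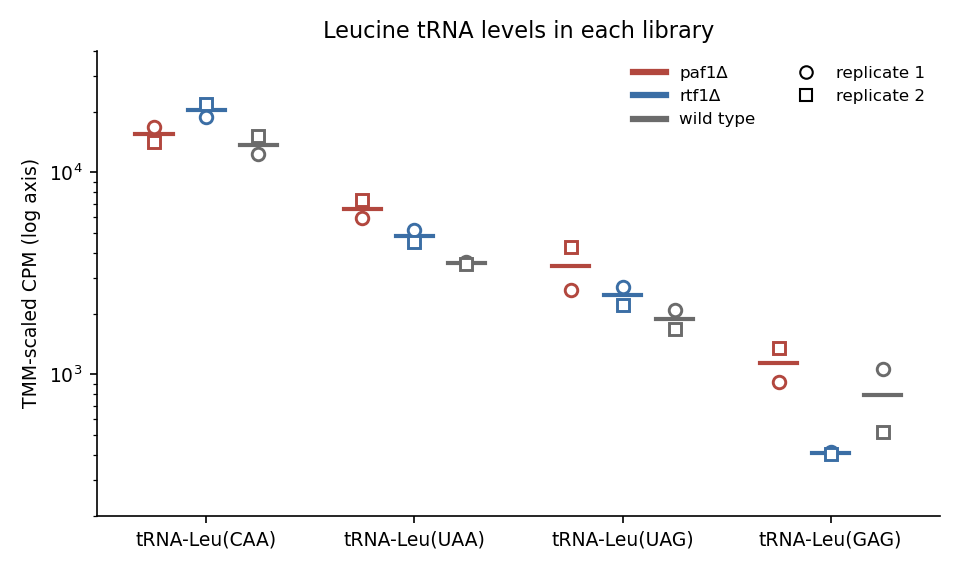
Level of each leucine tRNA type in each library, as TMM-scaled CPM on a log axis, for paf1∆ (red), rtf1∆ (blue) and wild type (grey). Circles are replicate 1, squares are replicate 2 and the line is the mean of the pair. On this scale, though not by share of aligned reads, tRNA-Leu(UAA) separates all 3 genotypes. In the scaling of each comparison, libraries did not overlap for 62.8% to 86% of all types. tRNA-Leu(GAG) is lowest in rtf1∆, at 415 and 402 CPM.

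Divided by the length of the spliced tRNA, the order of the types was the same in every genotype. tRNA-Leu(CAA) had 188 ± 22.6 CPM per nt in paf1∆, 248 ± 24.9 in rtf1∆ and 167 ± 23.0 in wild type. tRNA-Leu(UAA) had 78.9 ± 11.5 CPM per nt in paf1∆, 58.0 ± 5.40 in rtf1∆ and 42.5 ± 0.692 in wild type. tRNA-Leu(UAG) followed with 42.0 ± 14.1 CPM per nt in paf1∆, 30.0 ± 4.28 in rtf1∆ and 22.9 ± 3.44 in wild type, and tRNA-Leu(GAG) with 13.9 ± 3.71 in paf1∆, 4.98 ± 0.115 in rtf1∆ and 9.69 ± 4.74 in wild type (SD, n = 2 each). No neighbours in this order overlapped between the libraries of a genotype.

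The order is also that of the number of genes. Per gene, tRNA-Leu(CAA) had 1544 ± 186 CPM in paf1∆, 2032 ± 204 in rtf1∆ and 1373 ± 188 in wild type. The lone tRNA-Leu(GAG) gene had 1137 ± 304 CPM in paf1∆, 409 ± 9.42 in rtf1∆ and 795 ± 389 in wild type, with its rtf1∆ level below those of the other leucine types. In wild type its level per gene was 1070 CPM in replicate 1 and 520 CPM in replicate 2, against 693 and 560 CPM for tRNA-Leu(UAG), so that the order of these types differed between the wild type libraries. tRNA-Leu(UAG) had 1147 ± 387 CPM per gene in paf1∆, 821 ± 117 in rtf1∆ and 626 ± 94.1 in wild type, and tRNA-Leu(UAA) had 946 ± 138 in paf1∆, 696 ± 64.8 in rtf1∆ and 510 ± 8.31 in wild type. All of these are means with SD over 2 libraries, and the lengths of the 4 spliced tRNAs differ by at most 2 nt.

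In paf1∆ against wild type, all 4 leucine tRNAs had a fitted level above wild type, but none passed the test. Over the 43 types, the edgeR quasi-likelihood test called 7 at an adjusted p under 0.05, which is 16.3% of the types, and 0 of the 4 leucine types. Without adjustment, 39.5% of all types and 0 leucine types had a p under 0.05. DESeq2 called 17 of the 43 types and limma-voom 4, with 0 leucine types in either. For tRNA-Leu(UAA) the log2 fold change was 0.97 ± 0.47 (SE, 95% interval -0.14 to 2.08, edgeR adjusted p = 0.161). It was 0.91 ± 0.53 for tRNA-Leu(UAG) (-0.34 to 2.17, edgeR adjusted p = 0.228). These intervals leave room for no change as well as for a change of more than 4-fold. tRNA-Leu(GAG) had 0.57 ± 0.68 (edgeR adjusted p = 0.514) and tRNA-Leu(CAA) 0.30 ± 0.47 (edgeR adjusted p = 0.590).

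The paf1∆ and wild type libraries did not overlap for 3 of the 4 leucine types, against 67.4% of all types. In the scaling of these 4 libraries, tRNA-Leu(GAG) was among the 3, with 1198 and 1234 CPM in paf1∆ against 1116 and 527 CPM in wild type. By share of aligned reads it was not, at 0.118% and 0.111% in paf1∆ against 0.134% and 0.0496% in wild type. Shares of tRNA-Leu(UAA), 0.758% and 0.600% in paf1∆ against 0.453% and 0.336% in wild type, stayed apart, and so did those of tRNA-Leu(UAG), 0.335% and 0.350% against 0.261% and 0.160%.

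The fold changes depended on single libraries and the calls on the fit. Without wild type replicate 1, the log2 fold change of tRNA-Leu(GAG) in paf1∆ was 1.21, and without wild type replicate 2 it was 0.10. With 1 wild type library left, these are given as sizes only. tRNA-Leu(UAA) was called higher when all 6 libraries shared one fit (0.89, edgeR adjusted p = 0.0275), which called 15 of the 43 types. For tRNA-Leu(CAA) the sign depended on paf1∆ replicate 1, without which the log2 fold change was -0.13.

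In rtf1∆ against wild type, tRNA-Leu(CAA), tRNA-Leu(UAA) and tRNA-Leu(UAG) had a fitted level above wild type and tRNA-Leu(GAG) one below it, and again none passed the test. edgeR called 0 of the 43 types, which is 0% of them, and 16.3% at an unadjusted p under 0.05, where leucine had 0. DESeq2 called 2 types and limma-voom 0, none of them a leucine tRNA. The largest change was that of tRNA-Leu(GAG), with a log2 fold change of -0.96 ± 0.43 (SE, 95% interval -2.01 to 0.09, edgeR adjusted p = 0.190), which ranked 5 of 43 by size. It was 0.57 ± 0.27 for tRNA-Leu(CAA) (-0.08 to 1.21, edgeR adjusted p = 0.190), 0.45 ± 0.23 for tRNA-Leu(UAA) (edgeR adjusted p = 0.200) and 0.39 ± 0.26 for tRNA-Leu(UAG) (edgeR adjusted p = 0.343).

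The rtf1∆ and wild type libraries did not overlap for 4 of the 4 leucine types in CPM, against 62.8% of all types. By share of aligned reads, only tRNA-Leu(CAA), with 1.80% and 1.82% in rtf1∆ against 1.56% and 1.44% in wild type, and tRNA-Leu(GAG) stayed apart. Within set 2, against wild type replicate 2 alone, the signs were the same. The log2 fold changes were -0.35 for tRNA-Leu(GAG), 0.43 for tRNA-Leu(CAA), 0.47 for tRNA-Leu(UAA) and 0.55 for tRNA-Leu(UAG). With 1 wild type library left, these are given as sizes only. Without wild type replicate 2, the log2 fold change of tRNA-Leu(GAG) was -1.39. The size of its difference thus rested on which wild type library it was set against.

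In paf1∆ against rtf1∆, tRNA-Leu(GAG) was higher in both paf1∆ libraries than in both rtf1∆ libraries, in TMM-scaled CPM and by share of aligned reads. tRNA-Leu(CAA) was lower in both paf1∆ libraries in CPM only, as its shares of 2.14% and 1.16% in paf1∆ overlapped the 1.80% and 1.82% in rtf1∆. edgeR called 16 of the 43 types, or 37.2%, and 0 of the 4 leucine types. Without adjustment, 60.5% of all types and 1 leucine type, tRNA-Leu(GAG), had a p under 0.05. Its log2 fold change was 1.48 ± 0.50 (SE, 95% interval 0.13 to 2.83, edgeR adjusted p = 0.0656). DESeq2 called it (DESeq2 adjusted p = 0.0291) among 24 of the 43 types and limma-voom did not (limma adjusted p = 0.212). tRNA-Leu(CAA) had a log2 fold change of -0.40 ± 0.19 (-0.90 to 0.11, edgeR adjusted p = 0.137), tRNA-Leu(UAA) 0.44 ± 0.25 (edgeR adjusted p = 0.198) and tRNA-Leu(UAG) 0.48 ± 0.39 (edgeR adjusted p = 0.319). Libraries did not overlap for 3 of the 4 leucine types, against 86% of all types. The log2 fold change of tRNA-Leu(GAG) was 1.70 without paf1∆ replicate 1 and 1.17 without paf1∆ replicate 2. It was 1.51 without rtf1∆ replicate 1 and 1.45 without rtf1∆ replicate 2. With 1 library left in a group, these are given as sizes only.

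**Figure D3:**
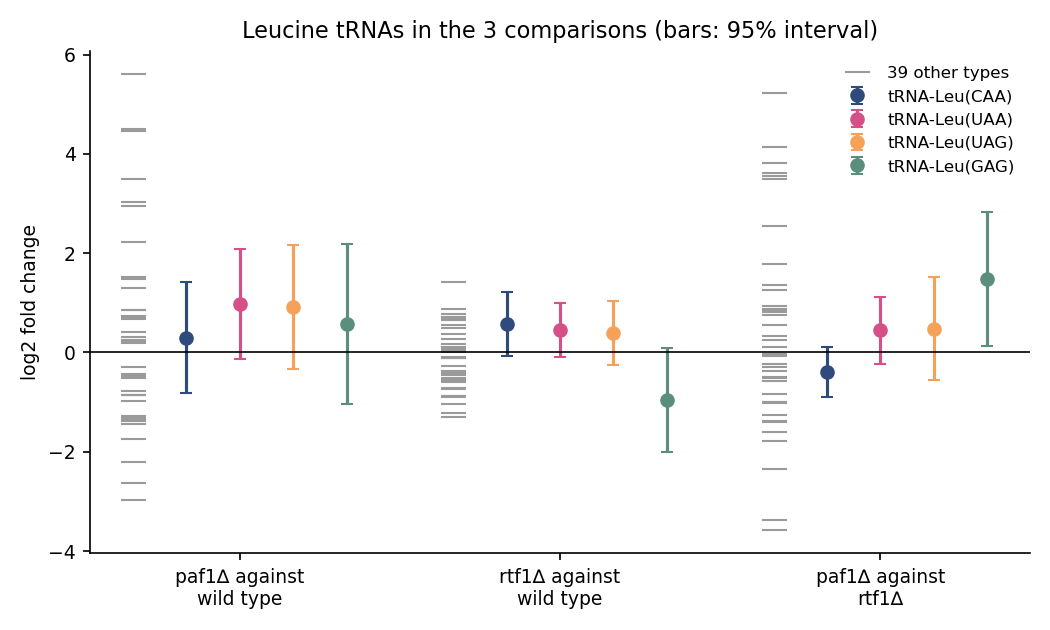
Log2 fold change of each leucine tRNA type in the 3 comparisons, with its 95% interval as a bar, beside the 39 types of other amino acids as grey dashes. The y axis is the log2 fold change from edgeR, with paf1∆ or rtf1∆ over wild type and paf1∆ over rtf1∆. Of the 12 intervals only that of tRNA-Leu(GAG) in paf1∆ against rtf1∆, 0.13 to 2.83, lies wholly on one side of 0.

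The median of the 4 leucine types lay above that of all types in each comparison, but not every leucine type did. Relative to the median of all types, tRNA-Leu(GAG) was at -0.87 in rtf1∆ against wild type and tRNA-Leu(CAA) at -0.51 in paf1∆ against rtf1∆. In paf1∆ against wild type, the median log2 fold change of the 4 leucine types was 0.74 and that of all 43 types was 0.25, while the median size without sign was 0.74 for leucine and 0.91 for all. The same medians were 0.42 and -0.08 in rtf1∆ against wild type, with sizes of 0.51 and 0.49. They were 0.46 and 0.12 in paf1∆ against rtf1∆, with sizes of 0.46 and 0.99. The comparisons share libraries and are not independent of each other. Scaling moved the median of all types from 0.25 with TMM to 0.13 with DESeq size factors and 0.10 with total counts in paf1∆ against wild type, and from -0.08 to -0.20 and -0.37 in rtf1∆ against wild type. Relative to that median, tRNA-Leu(UAA) in paf1∆ was at 0.72, 0.73 and 0.68, and tRNA-Leu(GAG) in rtf1∆ at -0.87, -0.87 and -0.95, in the same order of scalings.

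The serine tRNAs, which share the long variable arm, stood far from the leucine tRNAs in paf1∆. Of the 4 serine types, 3 were called higher in paf1∆ against wild type, with a median log2 fold change of 3.98 over the 4, and 3 were called higher against rtf1∆, with a median of 3.88. In rtf1∆ against wild type 0 serine types were called, and their median was 0.08. Of the 10 types whose genes have introns, tRNA-Leu(CAA) and tRNA-Leu(UAG) included, 1 was called higher and 0 lower in paf1∆ against wild type. In rtf1∆ against wild type 0 were called, and in paf1∆ against rtf1∆ 1 higher and 1 lower. The type called higher was tRNA-Ser(CGA) each time, which is also a serine type, as is tRNA-Ser(GCU) of this list. Over all 43 types, 16.3% were called in paf1∆ against wild type, 0% in rtf1∆ against wild type and 37.2% in paf1∆ against rtf1∆. The medians of these 10 types were 0.49, -0.13 and 0.40 in the same order of comparisons. A difference between the leucine list and either of these lists was not tested.

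Ratios between leucine tRNAs of one library need no scaling, and they set tRNA-Leu(GAG) apart in rtf1∆. The ratio of tRNA-Leu(UAG) to tRNA-Leu(GAG) reads was 2.84 and 3.15 in paf1∆, 6.53 and 5.51 in rtf1∆, and 1.94 and 3.23 in wild type. For tRNA-Leu(UAA) over tRNA-Leu(GAG) it was 6.44 and 5.41 in paf1∆, 12.5 and 11.3 in rtf1∆, and 3.37 and 6.78 in wild type. In all 3 ratios to tRNA-Leu(GAG) the rtf1∆ libraries lay above both other genotypes, and those of paf1∆ overlapped wild type. The 3 ratios share the tRNA-Leu(GAG) reads and are not independent of each other. In each of them wild type replicate 2, which is of the same set as rtf1∆, lay nearer to rtf1∆ than wild type replicate 1. Such ratios were not formed for other amino acids, so no share over all types stands beside them. For tRNA-Leu(CAA) over tRNA-Leu(GAG), the third of them, the values were 18.2 and 10.5 in paf1∆, 45.5 and 54.2 in rtf1∆, and 11.6 and 29.0 in wild type.

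The ratio of tRNA-Leu(CAA) to tRNA-Leu(UAA) was 2.82 and 1.93 in paf1∆, 3.64 and 4.79 in rtf1∆, and 3.43 and 4.27 in wild type. Both paf1∆ libraries were below the other 4, and rtf1∆ overlapped wild type. tRNA-Leu(UAA) over tRNA-Leu(UAG) was the steadiest pair, between 1.72 and 2.27 in all 6 libraries, and no genotype was apart from another. With 2 libraries against 2, the smallest two-sided p of an exact permutation test of a ratio is 0.333, and no such test was run.

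**Figure D4:**
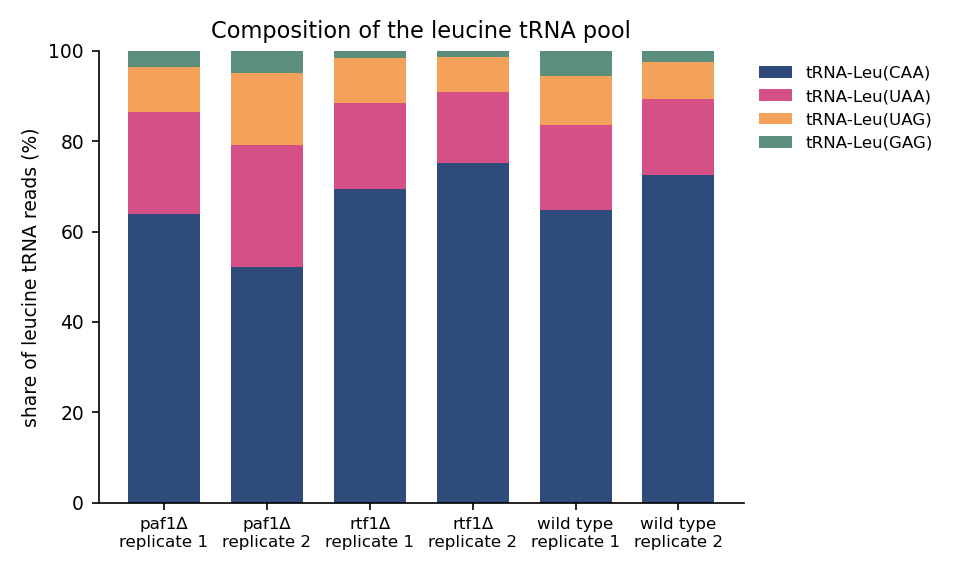
Composition of the leucine tRNA reads in each library, as the share of each type in percent of all leucine reads, with 1 bar for each library of paf1∆, rtf1∆ and wild type. tRNA-Leu(CAA) takes 52.2% to 75.2% of the reads, and tRNA-Leu(GAG) is 1.53% and 1.39% in rtf1∆ against 5.58% and 2.50% in wild type.

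The patterns of the types over the 6 libraries were compared by the root mean square difference of their log2 CPM, each centred on its own mean. Among leucine tRNAs, tRNA-Leu(UAA) and tRNA-Leu(UAG) were the most alike at 0.15, and tRNA-Leu(CAA) and tRNA-Leu(GAG) the least alike at 0.91. Among types of other amino acids, tRNA-Leu(CAA) was nearest to tRNA-Ala(AGC) at 0.15, and tRNA-Leu(GAG) to tRNA-Val(AAC) at 0.14. Of the same types, tRNA-Arg(CCU) was nearest to tRNA-Leu(UAA) at 0.19 and tRNA-Arg(CCG) to tRNA-Leu(UAG) at 0.20, both further than these leucine tRNAs were from each other. The median difference to all other types was between 0.71 for tRNA-Leu(CAA) and 1.09 for tRNA-Leu(GAG). All points share the same 6 libraries and their depth, and the values are a description with no test.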

How the data were processed

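Reads had been clipped and trimmed in Galaxy and aligned to the unique yeast tRNA sequences; the submitters' processing notes name Bowtie and SAMtools, with versions not given in the sources used here. The authors deposited raw counts of aligned reads for each tRNA sequence, as IdxStats gives them. Unaligned reads, 12.1% to 94.4% of a library, entered no library size. Counts were summed by anticodon. For each comparison, the 4 libraries concerned were fitted in edgeR (version 4.0.16, R version 4.3.3) by the quasi-likelihood test after TMM scaling, two-sided, with Benjamini-Hochberg adjustment over 43 types at 0.05 and at least 10 counts in at least 2 libraries. CPM printed for all genotypes come from TMM scaling of all 6 libraries. As alternatives, DESeq2 (version 1.42.0) and limma-voom (limma version 3.58.1) were run, with other scalings, other filters, unsummed counts, a fit of all 6 libraries, a replicate block and each library left out. The fit was run on simulated data in which 10 types changed by a log2 fold change of 2. No leucine type changed that much here, so that run does not bear on changes of the sizes reported. For rtf1∆, label replicate numbers are crossed with those in the library file names, and labels were followed. A 3-count floor was at most 0.000578% of aligned reads. The 4 leucine types were the named tRNAs. Members, lists and tests were chosen with earlier results of these data known.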

Additional observations from a re-analysis of the deposited data

Results flagged for a closer look

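tRNA-Leu(GAG) lay on opposite sides of wild type in the deletions, with neither change called (log2 fold change 0.57, edgeR adjusted p = 0.514 in paf1∆, and -0.96, edgeR adjusted p = 0.190 in rtf1∆). Without wild type replicate 1 the log2 fold change was 1.21 in paf1∆ and -0.35 in rtf1∆. Without wild type replicate 2 it was 0.10 in paf1∆ and -1.39 in rtf1∆. Both paf1∆ libraries were above and both rtf1∆ libraries below both wild type libraries in the scaling of each comparison. Of all types, 67.4% in paf1∆ against wild type and 62.8% in rtf1∆ against wild type did not overlap either. The log2 fold change of paf1∆ over rtf1∆ was 1.48. The difference itself, tested with edgeR, had an adjusted p of 0.0656. The paf1∆ libraries did not stand apart from wild type by share of aligned reads or when all 6 libraries were scaled together. The different alignment of the paf1∆ reads and the deletion of PAF1 cannot be told apart here.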

How the results depend on the processing

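Of 173 log2 fold changes of leucine types under the alternatives, 161 kept their direction and their side of the threshold, 8 became significant and 4 changed sign. The 161 include repeats of the main fit, which could not differ. These are all values with no filter, and those with at least 1000 counts in both comparisons with paf1∆, as 43 types were tested each time. Some of the 8 came from fits with 1 library left in a group and are not read as calls. tRNA-Leu(CAA) in paf1∆ against wild type was -0.24 with the leucine counts as library size and -0.13 without paf1∆ replicate 1, and with the leucine counts as library size tRNA-Leu(UAA) and tRNA-Leu(UAG) in rtf1∆ against wild type were -0.041 and -0.10. That scaling sets the leucine sum equal in all libraries. Over the fits that left out 1 library, tRNA-Leu(CAA) in paf1∆ against wild type was between -0.13 and 0.31. The causes of the other changes were not tested.

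In paf1∆ against wild type, 7 types were called, and 9 with DESeq size factors, 12 with total counts, 17 with DESeq2, 4 with limma-voom, 13 sequences when not summed, 15 with all 6 libraries, and 0 to 5 when 1 library was left out. The called leucine types were 1 with all 6 libraries and 0 to 1 when 1 library was left out. In rtf1∆ against wild type 0 types were called, and 1 with DESeq size factors, 4 with total counts, 2 with DESeq2, 4 sequences when not summed, and 0 to 5 when 1 library was left out, with 0 to 1 leucine types. In paf1∆ against rtf1∆ 16 types were called, and 0 to 28 when 1 library was left out. The called leucine types were 1 with total counts (18 of all 43 types), 1 with DESeq2 (24 of 43), 1 when not summed (18 of 70 sequences), and 0 to 1 when 1 library was left out. This was tRNA-Leu(GAG) in each case, and of the calls over all types 43.8% were higher in paf1∆ with TMM, 66.7% with total counts and 54.5% with the leucine counts as library size. In paf1∆ against wild type this share was 57.1% with TMM, 44.4% with DESeq size factors and 30.8% with the leucine counts as library size. With the replicate block, 0 types were called in paf1∆ against wild type, 0 in rtf1∆ against wild type and 19 in paf1∆ against rtf1∆, and 0 leucine types in all 3. By their labels, samples of one number share only that number. Over the 43 types, the deviation of replicate 1 from its genotype's mean log2 CPM was correlated between the genotypes compared. The correlations were 0.06, 0.43 and 0.08 in the same order of comparisons. The sign of both values with rtf1∆ depends on which replicate numbers are followed. Where a genotype kept 1 library, it was assumed to vary like the other group.

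Without the type with the most reads, the leucine share was 3.57% in paf1∆, 3.93% in rtf1∆ and 2.63% in wild type. With at least 1000 counts, 38 types remained in rtf1∆ against wild type and tRNA-Leu(GAG), with 198 to 712 reads, was not tested. With 2 libraries for each genotype, the 95% intervals of the log2 fold changes were up to 3.2 wide, and depth limits most levels less than the spread between libraries. In rtf1∆ the Wilson intervals of both shares overlapped for tRNA-Leu(GAG), with 305 and 198 reads, and for tRNA-Leu(CAA). The small SD of tRNA-Leu(GAG) in rtf1∆ therefore does not cover counting error.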
